A study of Mus musculus with 20 samples.

Results

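The TNF and TNF receptor family was followed in mouse kidney through 10 genes that were chosen by name: the ligands Tnf and Tnfsf12 (TWEAK) and the receptors Tnfrsf1a (TNFR1), Fas, Tnfrsf10b, Tnfrsf21, Tnfrsf1b (TNFR2), Tnfrsf12a (Fn14), Ltbr and Cd40. All 10 were on the microarray, under 16 of its 41174 probes, out of 27827 gene names. One-colour arrays measured whole kidneys of C57BL/6 male mice, 8 to 12 weeks old, in 5 groups of 4 arrays. Control mice had neither surgery nor drug, so they were not sham-operated. IRI (ischemia and reperfusion injury) mice had both renal pedicles clamped for 45 min and were killed 6 h after reperfusion. IRI+Hemin mice were given 25 mg/kg Hemin, an inducer of heme oxygenase-1, 24 h before the same surgery, and Hemin mice were given the drug alone. IPC+IRI mice (ischemic preconditioning) had a 15 min clamp 7 days before the 45 min clamp. Each array is labelled as a separate sample, and where samples of a group are not stated to come from separate mice, p-values measure the spread between arrays.

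Ligands of this family are mostly trimers on the cell surface or shed from it, and they cluster receptors on the target cell. Receptors with a cytoplasmic death domain, such as TNFR1 and Fas, can recruit adaptors and caspase-8 and start cell death, while TNFR1, TNFR2, Fn14, the lymphotoxin beta receptor and CD40 also recruit TRAF adaptors and activate NF-kappaB. In the kidney, TNF signalling is known as a driver of inflammation and tubular cell death after ischemia, and Fn14, the receptor of TWEAK, is known to be induced on injured epithelium.

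Expression is given as log2 of the processed signal over the 75th percentile of its array, so a value of 0 is the signal of a probe at that percentile and a step of 1 is a change of 2-fold. These values compare groups for one gene and not one gene with another. A gene was called when its limma p, adjusted over the genes tested in that comparison, was below 0.05. The 75th percentile ranged from 146.7 to 357.9 intensity units, and 57.4% to 67.4% of gene names were well above background on an array. No slide held arrays of more than 1 group, and effects of the slide therefore cannot be told apart from those of the group in any comparison. By the scan dates, day 1 held the Control and IRI arrays, day 2 those of IRI+Hemin, and day 3 those of IPC+IRI and Hemin, so IRI versus Control and IPC+IRI versus Hemin are the pairs of groups within a scan day. Kidney markers were present on all slides: the 7 proximal tubule genes were tested in all comparisons, and 2 of 7 were lower in IRI than in Control, where 33.9% of all genes tested were lower. Mean log2 expression of Hmox1, the heme oxygenase-1 gene, was 1.37 ± 0.52 (SD, n = 4) in Control and 1.93 ± 0.21 in Hemin, and reached 6.03 ± 0.48 in IRI, 5.80 ± 0.70 with Hemin before ischemia and 3.96 ± 1.22 with preconditioning. Havcr1 (KIM-1), an injury marker of the tubule, averaged 0.55 ± 0.07 in Control, -0.05 ± 0.40 in Hemin, 1.34 ± 0.19 in IRI, 0.43 ± 0.53 in IRI+Hemin and 1.60 ± 0.86 in IPC+IRI. Lcn2 (NGAL), another one, averaged -3.65 ± 0.64, -3.92 ± 0.92, 1.41 ± 0.59, 0.08 ± 0.67 and -0.66 ± 0.38 in the same order.

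Tnfrsf12a and Fas were the members whose rise with IRI was kept under all alternatives run, and the 250 bases before their transcription starts are shown for that reason. They come from RefSeq, on GRCm38.p6, with motif matches in capitals. Tnfrsf12a lies on the minus strand at chr17:23677450-23677699 and Fas on the plus strand at chr19:34290409-34290658.
Tnfrsf12a: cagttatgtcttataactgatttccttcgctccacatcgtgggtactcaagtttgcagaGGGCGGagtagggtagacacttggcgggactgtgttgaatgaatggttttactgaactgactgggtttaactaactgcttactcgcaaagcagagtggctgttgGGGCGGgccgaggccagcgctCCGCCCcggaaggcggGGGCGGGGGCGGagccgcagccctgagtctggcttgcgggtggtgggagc
Fas: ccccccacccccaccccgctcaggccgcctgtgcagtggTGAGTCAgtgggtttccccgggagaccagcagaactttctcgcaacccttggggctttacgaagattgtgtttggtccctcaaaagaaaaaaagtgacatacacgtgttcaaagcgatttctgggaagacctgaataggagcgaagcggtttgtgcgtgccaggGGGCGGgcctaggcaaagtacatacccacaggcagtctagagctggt
Both strands were searched for the AP-1 motif TGANTCA, the GC box GGGCGG, the TATA box TATAAA and the NF-kappaB consensus, and none of the matches shown overlapped another. The Tnfrsf12a stretch held 5 GC boxes, and that of Fas held 1 GC box and 1 AP-1 match. Of all 32851 promoters, 32.7% held a GC box, 6.75% the AP-1 motif, 12.4% the TATA box and 3.9% the NF-kappaB consensus. Promoters were at hand for 7 members, and among those of Tnf, Tnfrsf1a, Tnfrsf21, Tnfrsf1b and Ltbr the only TATA box was that of Tnf, 29 bases before its start. No NF-kappaB consensus was found in the 7 windows.

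**Figure D1:**
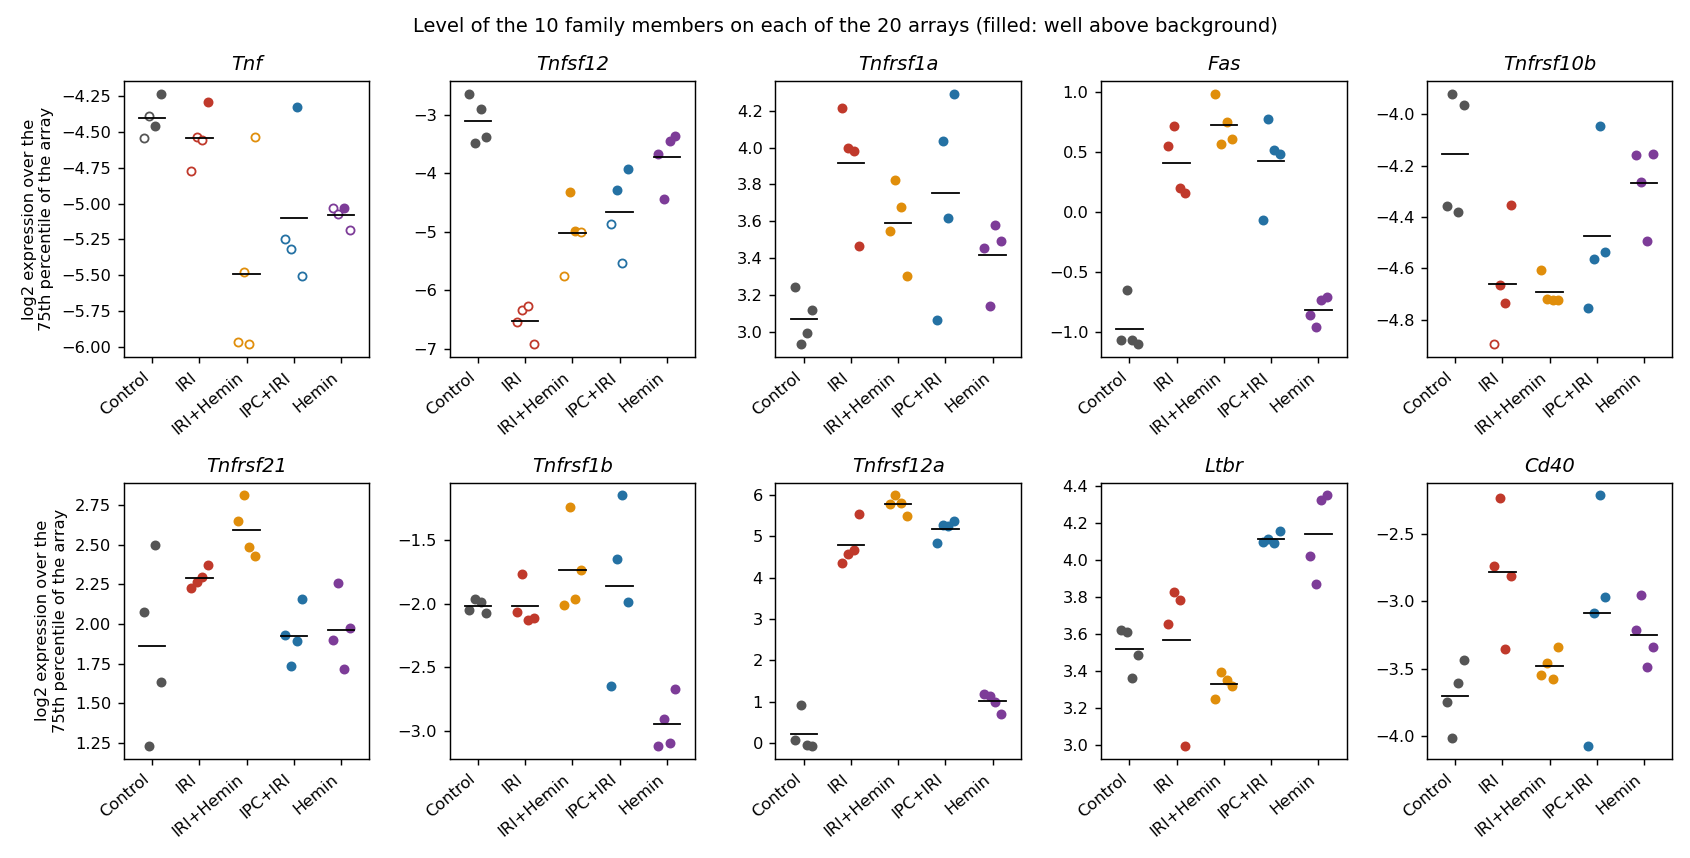
Level of each member on each array, in log2 over the 75th percentile of the array, with 1 panel per gene, a vertical scale of its own in each and a black line at the mean of the 4 arrays. Open points are arrays on which the gene was not well above background. Tnfrsf12a sits between -0.07 and 0.92 in Control and between 4.35 and 5.53 in IRI, while Tnfsf12 is not well above background on any IRI array.

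IRI versus Control compared injured kidneys with those of mice without surgery. Effects of the operation therefore cannot be told apart from those of ischemia and reperfusion. Of the 10 members, 9 could be tested, and 4 were higher (Tnfrsf12a, Fas, Cd40 and Tnfrsf1a) and 2 lower (Tnfsf12, tested through the Control arrays alone, and Tnfrsf10b). Among all 17712 genes tested, 17.1% were called higher and 33.9% lower. Members tested had a median log2 fold change of 0.43, against -0.17 for all genes. Fas, Tnfrsf1b and Tnfrsf12a are also among the genes the study picked on these same arrays.

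The receptor Tnfrsf12a and its ligand Tnfsf12 moved in opposite directions in IRI. Tnfrsf12a was at 0.09, 0.92, -0.05 and -0.07 on the Control arrays and at 4.35, 4.58, 4.66 and 5.53 on the IRI arrays. The groups were far apart, although Control replicate 2 stood above the other Control arrays. The difference of 4.56 (SE 0.24) is 23.6-fold, with a limma adjusted p of 3.3e-10, and without Control replicate 2 it was 4.79. Tnfrsf12a was measured by 1 probe, at chr17:23812746-23812805 on mm9, the build of the array files.

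Tnfsf12 was at -2.64, -3.49, -2.90 and -3.37 in Control and at -6.54, -6.34, -6.28 and -6.93 in IRI. It was well above background on 4 of 4 Control arrays and on 0 of 4 IRI arrays, so its level in IRI is only bounded. Against the dimmest signal well above background on those arrays it was at least 3.04-fold lower in IRI. It was tested through the Control arrays alone, and the limma adjusted p of 4.2e-07 belongs to the fitted log2 change of -3.42, which is not a bound and became -0.18 (adjusted p = 0.74) with the normexp background correction, which adds an offset of 50 intensity units to every spot. Its only probe is at chr11:69499870-69499929 on mm9.

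In the other injured groups Tnfsf12 read -5.77, -4.33, -4.99 and -5.01 in IRI+Hemin and -4.87, -4.29, -5.54 and -3.93 in IPC+IRI, and was well above background on 2 of 4 arrays of each. With too few arrays above background, the comparisons with IRI were not tested, and its order among the 3 injured groups is not established. Against Control, the IPC+IRI arrays were lower by a log2 change of -1.56 (SE 0.34, limma adjusted p = 0.00086). That test was entered through the Control arrays alone, and the call was lost with normexp (-0.45, adjusted p = 0.18). In Hemin it was at -3.66, -4.44, -3.44 and -3.37, well above background on 4 of 4 arrays, and its difference from Control of -0.63 (95% CI -1.34 to 0.09, from the fit) missed the threshold.

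Tnf itself could not be followed. Its 1 probe was printed in 10 spots, of which 20 of 40 were well above background in Control, 13 of 40 in Hemin, 13 of 40 in IRI, 11 of 40 in IPC+IRI and 5 of 40 in IRI+Hemin, and the gene passed on 2 Control arrays, 1 array each of IRI, IPC+IRI and Hemin and 0 of IRI+Hemin. It was therefore not tested in any comparison. Means were -4.41 ± 0.13 (SD, n = 4) in Control, -5.08 ± 0.07 in Hemin, -4.54 ± 0.20 in IRI, -5.10 ± 0.53 in IPC+IRI and -5.49 ± 0.68 in IRI+Hemin. Tnf mRNA was thus not measurable at this signal 6 h after reperfusion, which does not show that it was absent or unchanged.

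Of the death receptors, Fas, the receptor of FasL, rose with IRI. It read -1.07, -0.65, -1.07 and -1.11 in Control and 0.54, 0.71, 0.20 and 0.15 in IRI. All IRI arrays were above all Control arrays, by 1.38 on the log2 scale (SE 0.17) or 2.60-fold (limma, adjusted p = 4.2e-06), and by 1.49 without Control replicate 2. IPC+IRI arrays were at -0.07, 0.77, 0.52 and 0.48 and IRI+Hemin arrays at 0.98, 0.57, 0.75 and 0.61, both overlapping IRI.

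Tnfrsf1a, the main receptor of soluble TNF, rose with IRI by a smaller step. Its probe was printed in 10 spots, and 40 of 40 spots in each group were well above background. It read 3.24, 2.93, 2.99 and 3.12 in Control and 4.21, 4.00, 3.98 and 3.47 in IRI, and the groups did not overlap. The difference was 0.84 (SE 0.21), or 1.80-fold (limma, adjusted p = 0.0030). IPC+IRI was higher than Control too, by 0.68 (SE 0.21, adjusted p = 0.011), but IPC+IRI replicate 1 lay within the Control range and the call was lost with quantile normalization (0.51, adjusted p = 0.063).

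Tnfrsf10b, the mouse TRAIL receptor, was called lower in IRI, by a log2 change of -0.51 (SE 0.15, limma adjusted p = 0.010), near the background of the array. It was at -4.36, -3.92, -4.38 and -3.97 in Control and -4.90, -4.67, -4.73 and -4.35 in IRI, and the groups overlapped. The call was lost with no normalization, with quantile normalization, with the brightest probe and with the mean of log2 over probes, and the sign turned with normexp (0.16). Of its 3 probes, 1 was not well above background on any array.

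Tnfrsf21 (death receptor 6) was at 2.07, 1.23, 2.50 and 1.63 in Control and at 2.23, 2.26, 2.29 and 2.37 in IRI. The IRI arrays lay inside the wide Control range, and the difference of 0.43 (95% CI 0.02 to 0.84) had an adjusted p of 0.078 in limma. Without Control replicate 3, the highest Control array, it was 0.64 (adjusted p = 0.0052), and in the deposited matrix the sign turned (-0.17). IRI+Hemin arrays were at 2.65, 2.81, 2.49 and 2.43 and did not overlap those of Hemin, at 1.90, 2.26, 1.72 and 1.98. That difference was 0.63 (SE 0.20, limma adjusted p = 0.015), and its call was lost with no normalization, with the mean of log2 over probes (0.39) and with the deposited matrix (0.28).

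Cd40, the costimulatory receptor of CD40 ligand on antigen-presenting cells and some epithelia, was higher in IRI. It read -3.75, -4.02, -3.60 and -3.44 in Control and -2.73, -2.23, -3.35 and -2.81 in IRI, with no overlap. The difference of 0.92 (SE 0.28) is 1.89-fold (limma, adjusted p = 0.012). It was no longer called with normexp (0.43, adjusted p = 0.15) or with the deposited matrix (0.71, adjusted p = 0.065). IPC+IRI arrays were spread from -4.08 to -2.21 and spanned both groups, with a difference from Control of 0.62 (adjusted p = 0.073) that became 0.95 (adjusted p = 0.0026) without IPC+IRI replicate 1.

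Ltbr, the receptor of lymphotoxin alpha beta and LIGHT, did not differ detectably between IRI and Control, with a difference of 0.04 (95% CI -0.27 to 0.36, adjusted p = 0.83). Control arrays were at 3.62, 3.61, 3.36 and 3.48. IRI arrays were at 3.65, 3.83 and 3.78 for 3 of them and at 2.99 for IRI replicate 4, without which the difference was 0.24.

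The TNF receptor 2 gene, Tnfrsf1b, is read by 2 probes that went opposite ways, so that the mean over probes showed no difference between IRI and Control (0.0014, SE 0.23, limma adjusted p = 0.996), while the mean of log2 over the probes gave 0.58 (adjusted p = 0.018). The upstream probe, at chr4:144812866-144813439 on mm9, is 60 bases long but spans 574 bases of the minus strand, so it reads across a splice junction. The sequence is shown because the signal of this probe fell while that of the other rose.
Tnfrsf1b upstream probe: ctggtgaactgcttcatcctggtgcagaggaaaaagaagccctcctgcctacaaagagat
The downstream probe, at chr4:144804304-144804363, starts 9076 bases nearer the end of the gene on that strand and was printed in 10 spots.

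On the upstream probe, Control arrays were at -1.23, -1.13, -1.18 and -1.27 and IRI arrays at -2.55, -2.17, -2.16 and -2.52. All IRI arrays were lower, by a log2 change of -1.15 (SE 0.20) in a limma fit of single probes that was added after seeing the data (adjusted p = 0.00016). On the downstream probe, Control arrays were at -4.11, -4.12, -4.02 and -4.02 and IRI arrays at -1.70, -1.45, -2.09 and -1.79. All IRI arrays were higher, by 2.31 (SE 0.33, adjusted p = 2.0e-05).

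The probes also parted in the other groups. On the upstream probe, Hemin was as low as the injured groups, at -2.49, -2.25, -2.69 and -1.98, a change of -1.15 against Control (SE 0.20, limma adjusted p = 0.00048). On the downstream probe, Hemin stayed near Control, at -4.28, -4.16, -3.67 and -4.04, with a difference of 0.03 (SE 0.33, adjusted p = 0.95). The downstream probe rose in IPC+IRI against Control by 2.65 (SE 0.33, adjusted p = 4.5e-06) and in IRI+Hemin against Hemin by 2.54 (SE 0.33, adjusted p = 1.4e-05). Hence the calls on the gene's mean, -0.93 for Hemin versus Control (adjusted p = 0.0051) and 1.21 for IRI+Hemin versus Hemin (adjusted p = 0.00048), each rest on 1 of the 2 probes.

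**Figure D2:**
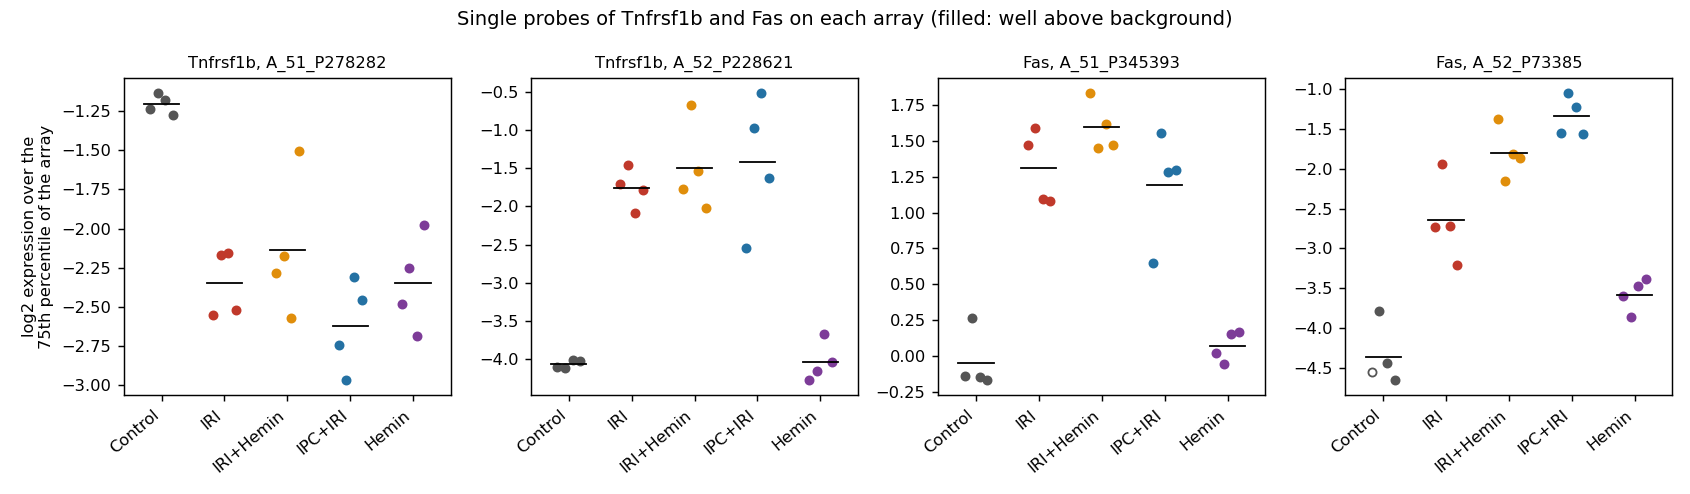
Single probes of Tnfrsf1b (left, upstream then downstream) and Fas (right, downstream then upstream) on each array, in log2 over the 75th percentile, with a black line at the mean of 4 arrays and open points where the probe was not well above background. Tnfrsf1b falls from -1.20 in Control to -2.35 in IRI on the upstream probe and rises from -4.07 to -1.76 on the downstream one, while both Fas probes rise.

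The 2 probes of Fas went the same way with IRI. The downstream one, at chr19:34401902-34401961 on mm9 and printed in 10 spots, rose by 1.36 (SE 0.17). The upstream one, at chr19:34383733-34383792, starts 18169 bases before it and rose by 1.71 (SE 0.24). The array files name it Fas, but its accession was not matched to Fas in RefSeq. They differed with preconditioning. Upstream, IRI arrays were at -2.74, -1.94, -2.71 and -3.20 and IPC+IRI arrays at -1.55, -1.05, -1.22 and -1.56. All IPC+IRI arrays were higher, by 1.30 (SE 0.24, limma adjusted p = 0.00031 in the fit of single probes), whereas the difference downstream was -0.12 (SE 0.17, adjusted p = 0.60). On the upstream probe IRI+Hemin was also higher than IRI, by 0.85 (SE 0.24, adjusted p = 0.0075), and Hemin higher than Control, by 0.78 (SE 0.24, adjusted p = 0.017).

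The probes of Tnfrsf10b and Tnfrsf21 disagreed too. For Tnfrsf10b, 1 probe fell in Hemin versus Control by a log2 change of -0.96 (SE 0.20, limma adjusted p = 0.0015) and another rose by 0.56 (SE 0.19, adjusted p = 0.029), with the gene's mean at -0.11. For Tnfrsf21, the brightest probe was higher in IRI than in Control by 0.50 (SE 0.19, adjusted p = 0.040), and the others did not pass.

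IPC+IRI versus Control called the same members higher as IRI versus Control except for Cd40, with Ltbr in addition. Cd40 passed there with quantile normalization (0.97, limma adjusted p = 0.0053) and with no normalization (1.06, adjusted p = 0.020). It did not differ detectably between IPC+IRI and IRI (-0.30, adjusted p = 0.40). Tnfrsf12a, Fas, Tnfrsf1a and Ltbr were higher and Tnfsf12, tested through the Control arrays alone, lower among 9 members tested, where 23.3% of all genes were higher and 32.8% lower. This comparison shares the Control arrays with IRI versus Control. IPC+IRI versus IRI asked what the earlier short clamp changed. Of 8 members tested, 1 was higher, Ltbr, and 0 were lower, where 26.3% of all 17666 genes tested were higher and 17.8% lower. At an unadjusted p below 0.05 no further member differed.

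Ltbr was at 4.10, 4.11, 4.09 and 4.16 in IPC+IRI, a very narrow range above all IRI and all Control arrays. Its means also went with the scan day, at 3.52 and 3.56 on day 1 (Control and IRI), 3.33 on day 2 (IRI+Hemin) and 4.11 and 4.14 on day 3 (IPC+IRI and Hemin), and every Ltbr call compares groups of different days, so that day and group cannot be told apart. Against IRI it was higher by 0.55 (SE 0.15) or 1.46-fold (limma, adjusted p = 0.0071), and by 0.36 (adjusted p = 0.018) without IRI replicate 4. Against Control it was higher by 0.59 (SE 0.15, adjusted p = 0.0029). In the deposited matrix the difference from Control was 0.54 (adjusted p = 0.0010) and that from IRI could not be tested. For Tnfrsf12a the difference of IPC+IRI from IRI was 0.40 (95% CI -0.11 to 0.90), and without IRI replicate 4 it was 0.65 (limma, adjusted p = 0.022). For Fas the difference was 0.02 (95% CI -0.33 to 0.38) and for Tnfrsf1a -0.16 (95% CI -0.61 to 0.28).

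IRI+Hemin versus IRI asked what Hemin changed in the injured kidney. Of 8 members tested, 1 was higher, Tnfrsf12a, and 0 lower, where 26.3% of all 17832 genes were higher and 18.1% lower. Tnfrsf12a read 5.78, 5.99, 5.82 and 5.49 in IRI+Hemin, and 3 of these 4 arrays were above all IRI arrays. The difference was 0.99 (SE 0.24), or 1.98-fold (limma, adjusted p = 0.0030). Cd40 was at -3.55, -3.46, -3.58 and -3.34, mostly below the IRI arrays, with a difference of -0.70 (SE 0.28) that missed the threshold (adjusted p = 0.053, unadjusted p = 0.024). It passed with normexp (-0.63, adjusted p = 0.019), with quantile normalization (-0.74, adjusted p = 0.031) and without IRI replicate 3 (-0.89, adjusted p = 0.023). Ltbr was lower by a log2 change of -0.24 (adjusted p = 0.21), and of -0.43 (adjusted p = 0.0060) without IRI replicate 4.

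Hemin alone was compared with Control in uninjured kidneys. Of 9 members tested, Tnfrsf12a and Ltbr were higher and Tnfrsf1b lower, where 18.5% of all 18573 genes were higher and 17.6% lower. Tnfrsf12a was at 1.20, 1.15, 1.00 and 0.70 in Hemin, with 3 of 4 arrays above all Control arrays and a difference of 0.79 (SE 0.24, limma adjusted p = 0.017). The call was lost with normexp (0.71, adjusted p = 0.053) and without Control replicate 3 (adjusted p = 0.056) or Control replicate 4 (adjusted p = 0.056). Ltbr was at 4.02, 3.87, 4.32 and 4.35 in Hemin, above all Control arrays, by 0.62 (SE 0.15, adjusted p = 0.0045).

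IRI+Hemin versus Hemin gave the response to ischemia and its surgery in treated kidneys. Of 9 members tested, Tnfrsf12a, Fas, Tnfrsf1b and Tnfrsf21 were higher and Tnfsf12, Tnfrsf10b and Ltbr lower, where 16.5% of all 18629 genes were higher and 27.9% lower. Tnfrsf12a was higher by 4.76 (SE 0.24, limma adjusted p = 4.8e-10) and Fas by 1.54 (SE 0.17, adjusted p = 2.6e-06). Ltbr was at 3.25, 3.39, 3.35 and 3.32 in IRI+Hemin, below all Hemin arrays, by a log2 change of -0.81 (SE 0.15, adjusted p = 0.00038). The Tnfsf12 change of -1.29 (SE 0.34, adjusted p = 0.0053) was tested through the Hemin arrays alone and rests on IRI+Hemin arrays of which 2 of 4 were well above background. It became -0.15 (adjusted p = 0.79) with normexp. The Tnfrsf10b call (-0.43, adjusted p = 0.032) was lost without IRI+Hemin replicate 2, 3 or 4 (adjusted p 0.055 to 0.063) and without Hemin replicate 1, 2 or 4 (adjusted p 0.059 to 0.079).

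**Figure D3:**
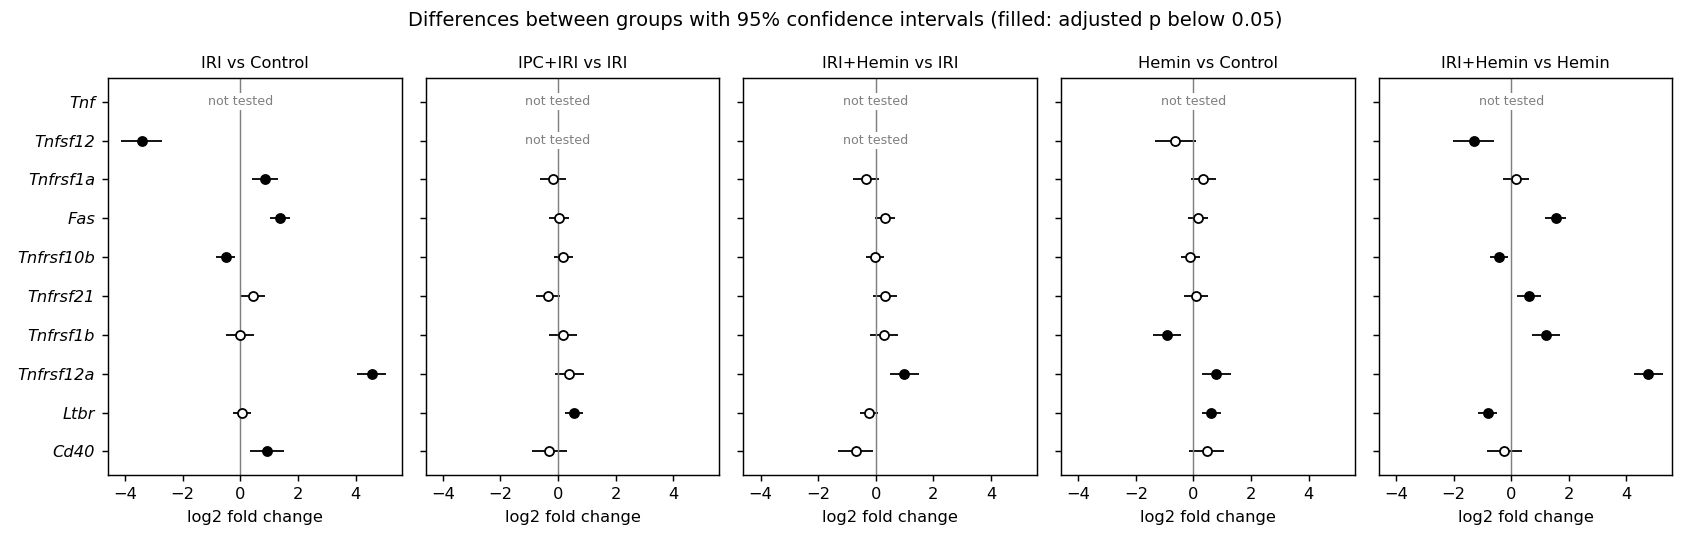
Log2 fold change of each member in 5 comparisons, with the 95% confidence interval of the limma fit as the bar and filled points where the adjusted p was below 0.05. The rises of Tnfrsf12a with ischemia, 4.56 without and 4.76 with Hemin, exceed those of all other members, and Ltbr is to the right of 0 in IPC+IRI versus IRI and Hemin versus Control and to the left in IRI+Hemin versus Hemin.

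Whether the response to ischemia and its surgery differed with Hemin was tested as an interaction, the change from Hemin to IRI+Hemin minus the change from Control to IRI. Of 9 members tested, 2 were higher (Tnfsf12 and Tnfrsf1b) and 1 lower (Ltbr), where 5.83% of all 19060 genes were higher and 1.96% lower. For Ltbr the interaction was -0.86 (SE 0.22, limma adjusted p = 0.020). For Tnfsf12 it was 2.13 (SE 0.48, adjusted p = 0.011) but rests on IRI arrays of which 0 of 4, and IRI+Hemin arrays of which 2 of 4, were well above background, so that a difference in its response is not established. For Tnfrsf1b it was 1.21 (SE 0.33, adjusted p = 0.030), and 1.36 on the upstream probe (adjusted p = 0.0075) against 0.23 on the downstream one (adjusted p = 0.83). The Tnfrsf1b call was lost without IRI replicate 1 or 3, without IRI+Hemin replicate 2 and without Hemin replicate 1 or 3, with an adjusted p of 0.052 to 0.064. All 3 calls were lost with normexp, where the values for Tnfsf12, Tnfrsf1b and Ltbr shrank to 0.030, 0.45 and -0.51, and with no normalization, where they were 1.92, 1.01 and -1.06. For Tnfrsf12a the interaction was 0.20 (SE 0.34, adjusted p = 0.79) and for Fas 0.17 (SE 0.24, adjusted p = 0.74). For Cd40 it was -1.16 (SE 0.40, limma adjusted p = 0.090). It passed with quantile normalization (-1.42, adjusted p = 0.031) and with the compared arrays alone (adjusted p = 0.020). For Tnfrsf1a it was -0.67 (SE 0.30, adjusted p = 0.20), for Tnfrsf21 0.20 (adjusted p = 0.73) and for Tnfrsf10b 0.081 (adjusted p = 0.88).

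Placed in order, mean Tnfrsf12a was lowest in Control (0.22), then came Hemin (1.01), IRI (4.78), IPC+IRI (5.18) and IRI+Hemin (5.77). Control and Hemin overlapped, and so did IRI and IPC+IRI, while Hemin and IRI, and IPC+IRI and IRI+Hemin, did not. For Fas the order was Control (-0.98), Hemin (-0.82), IRI (0.40), IPC+IRI (0.42) and IRI+Hemin (0.73), and only Hemin and IRI did not overlap among neighbours. For Ltbr it was IRI+Hemin (3.33), Control (3.52), IRI (3.56), IPC+IRI (4.11) and Hemin (4.14), and only IRI and IPC+IRI did not overlap among neighbours.

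The genes most like each member over the 20 arrays were sought among 14525 genes well above background on all of them. For Tnfrsf12a, Lmna, which encodes lamin A/C, had a Pearson r of 0.98, next to an unnamed transcript (NAP096050-001, r = 0.99). For Fas these were Icam1, an adhesion molecule (r = 0.97), and Stat3, a transcription factor of cytokine signalling (r = 0.97). For Tnfrsf1b they were Itgb2, the leukocyte integrin beta 2 chain (r = 0.90), and Fyb, a leukocyte adaptor (r = 0.87), where the Tnfrsf1b value is the mean of 2 probes that went opposite ways in IRI. For Cd40 they were Slfn2 (r = 0.88) and Ifi204 (r = 0.78). Ltbr was nearest to Taf8 (r = 0.93) and Rab32 (r = 0.92), Tnfrsf1a to 1110006O17Rik (r = 0.90) and Zfp263 (r = 0.88), and Tnfrsf21 to Trp53i13 (r = 0.83) and Tagln2 (r = 0.82). These values describe arrays that share groups and slides, and they carry no test.

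The other ligands of the family were mostly too dim to follow. Of 16 listed, 15 were on the array and 5 could be tested in IRI versus Control, where 0 were higher and 2 lower, Tnfsf15 and Ltb, beside 33.9% lower over all genes. Ltb (lymphotoxin beta), a ligand of Ltbr with its partner, fell by a log2 change of -1.25 (SE 0.35), or 2.38-fold (limma, adjusted p = 0.0066). Fasl and Cd40lg, looked up after the values were seen as the ligands of Fas and Cd40, were not tested in IRI versus Control, with well above background readings on 0 of 4 IRI arrays each. In IPC+IRI versus IRI, 3 of 5 ligands were higher, Ltb among them, and in IRI+Hemin versus IRI 1 of 6, beside 26.3% of all genes in each. Tnfsf15 in IRI versus Control, Tnfsf14 in IPC+IRI versus IRI and Lta, the 1 call in IRI+Hemin versus IRI (well above background on 3 of 4 IRI+Hemin and 0 of 4 IRI arrays), were tested through their brighter group alone, and without such genes 1 of 3 ligands was lower, 2 of 3 higher and 0 of 3 called.

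Among 20 other receptors, 10 were tested in IRI versus Control, with 0 higher and 4 lower (17.1% and 33.9% over all genes) and a median of -0.51 (-0.36 with genes below background in one group set at their bound), against -0.17 over all genes. Edar, 1 of the 4, was tested through Control alone. Tnfrsf25 (death receptor 3), the receptor of TL1A, fell 4.01-fold (SE 0.37 on the log2 scale, limma adjusted p = 0.00022), and Ngfr (p75NTR) fell 1.84-fold (adjusted p = 0.015). Tnfrsf22, a decoy TRAIL receptor of the mouse, was lower than in IRI by 1.95-fold in IPC+IRI (adjusted p = 0.0060) and 2.51-fold in IRI+Hemin (adjusted p = 0.00055), 2 comparisons that share the IRI arrays.

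All 32 genes of receptor-proximal signalling and shedding were tested in IRI versus Control, and 13 were higher and 7 lower, with a median of 0.23, where all genes gave 17.1% higher and 33.9% lower. Rhbdf2 (iRhom2), which brings the TNF sheddase ADAM17 to the cell surface, rose 4.12-fold (SE 0.38 on the log2 scale, limma adjusted p = 0.00027), and Mlkl, the executor of necroptosis, rose 3.78-fold (adjusted p = 5.0e-05). Bid, a caspase-8 substrate, fell 1.94-fold (adjusted p = 4.3e-05), and Fadd, the adaptor that joins Fas to caspase-8, fell 1.64-fold (adjusted p = 0.00035). In IPC+IRI versus IRI, 3 were higher and 8 lower, where all genes gave 26.3% and 17.8%. Adam17 was higher by 0.65 (SE 0.11, limma adjusted p = 0.00017), while Casp8 was lower by a log2 change of -0.75 (SE 0.14, adjusted p = 0.00037) and Map3k7 (TAK1) by one of -0.72 (SE 0.16, adjusted p = 0.0016). In IRI+Hemin versus IRI, 5 were higher and 10 lower, where all genes gave 26.3% and 18.1%. Adam17 (0.47, adjusted p = 0.0021) and Map3k7ip1 (TAB1; 0.53, adjusted p = 0.015) were higher, and Traf6 (-0.64, adjusted p = 0.00059) and Map3k14 (NIK; -0.63, adjusted p = 0.0054) lower.

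Most tested genes of a list known to be induced by TNF through NF-kappaB were higher in IRI than in Control, although Tnf itself was not measurable. Of 29 listed, 25 were tested, 23 were higher and 0 lower, where all genes gave 17.1% higher and 33.9% lower, with a median of 2.22 (1.93 with 5 genes at their bound). Of the 25, 6 (Cxcl1, Cxcl2, Il6, Ptgs2, Sele and Tnfaip6) were well above background on at most 1 Control array, entered the test through IRI alone and had to be higher to be called. Of the 19 well above background on at least 3 of 4 arrays of both groups, a restriction chosen after seeing the data, 17 were higher and 0 lower. The 4 not tested, Csf2, Nos2, Mmp9 and Ccl20, were well above background on 0 of 4 arrays in both groups. Other stimuli can induce these genes as well. Ccl2, a monocyte chemokine, rose 28.5-fold, a log2 change of 4.83 (SE 0.45, limma adjusted p = 2.3e-07), and Cxcl10 rose 8.60-fold (SE 0.50, adjusted p = 6.8e-05). Many genes of this list, among them Ccl2, Cxcl10, Ccl5, Csf1 and Tnfaip3, are also in gene lists the study made from these arrays, so the counts are not independent of that choice. In IPC+IRI versus IRI, 1 of 25 was higher and 9 lower (1 and 7 of the 23 so measured in both groups, and 26.3% and 17.8% over all genes), with a median of -0.22 against 0.09 over all genes. Ccl2 was 3.62-fold lower (adjusted p = 0.0032) and Csf1, the macrophage growth factor, 2.22-fold lower (adjusted p = 0.00035), and Sod2, mitochondrial superoxide dismutase, was higher by 0.44 (SE 0.14, adjusted p = 0.021). In IRI+Hemin versus IRI, 0 were higher and 10 lower (0 and 8 of 23, and 26.3% and 18.1% over all genes), with a median of -0.49 against 0.08 over all genes. Ccl5, a T cell and monocyte chemokine, was 5.77-fold lower (adjusted p = 0.0040) and Ccl2 4.18-fold lower (adjusted p = 0.0015). In Hemin versus Control, 2 of 20 were higher and 0 lower (1 and 0 of 19), where all genes gave 18.5% and 17.6%.

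**Figure D4:**
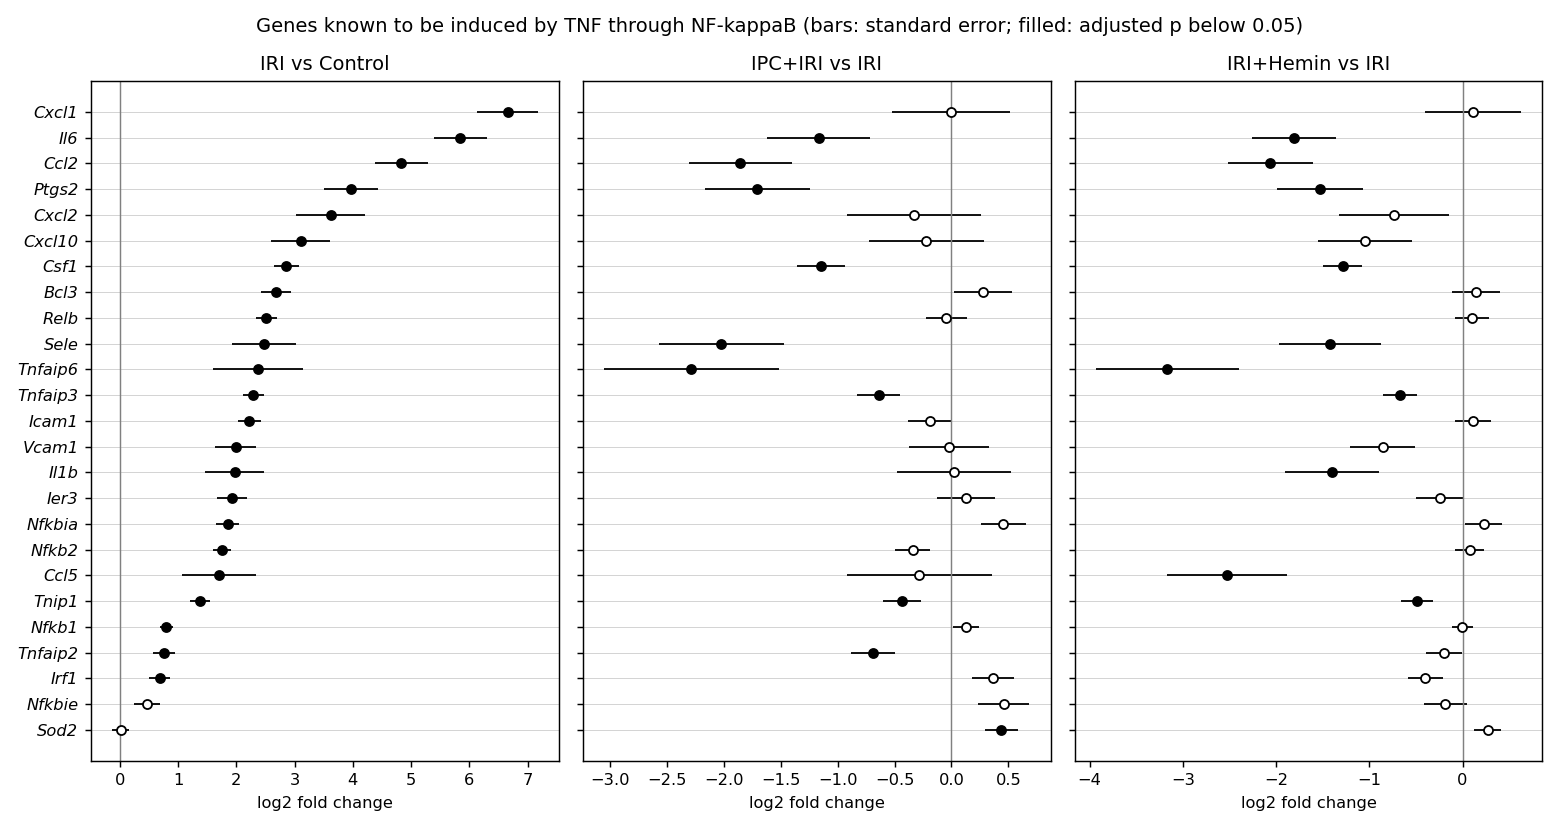
Log2 fold change of the NF-kappaB list genes tested in IRI versus Control, in that comparison and against IRI with preconditioning or Hemin, with the standard error as the bar and filled points where the adjusted p was below 0.05. In IRI versus Control 23 of 25 are filled and to the right of 0, and in the others most filled points, 9 of 10 and 10 of 10, are to the left.

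In bulk tissue, fewer cells of a type and less RNA per cell cannot be told apart. The summed level of the neutrophil markers ranged from 0.22 to 0.55 times the 75th percentile in Control and 0.43 to 1.54 in Hemin, against 2.43 to 8.03 in IRI, 6.29 to 19.2 in IPC+IRI and 2.11 to 9.44 in IRI+Hemin. Of 5 neutrophil genes, 4 were on the array and 2 (S100a8 and S100a9) were tested in IRI versus Control, both higher, while Csf3r was well above background on 2 of 4 IRI arrays and Il8rb (Cxcr2) on 0 of 4. That of the macrophage and monocyte markers ranged from 3.52 to 5.48 in Control, 4.39 to 5.42 in Hemin, 6.56 to 9.08 in IRI, 7.49 to 12.3 in IRI+Hemin and 6.83 to 24.5 in IPC+IRI. Cd68 and Cd14 were the 2 of 6 called higher in IRI versus Control, where 17.1% of all genes were higher and 33.9% lower. Of the general leukocyte markers, 1 of 4 was higher (Cd53), and 3 of 6 T cell and 3 of 3 tested B cell genes were lower, beside 33.9% of all genes, with Cd3g, Cd79a and, among those higher, S100a8 tested through 1 group alone. Of endothelial markers 1 of 5 was higher and 2 lower, of collecting duct markers 1 of 2 was higher, and of fibroblast and podocyte markers 1 of 4 and 1 of 2 were lower. In IPC+IRI versus IRI, where 26.3% of all genes were higher and 17.8% lower, macrophage and monocyte markers were higher for 3 of 6 and lower for 1, neutrophil markers higher for 1 of 4 (Il8rb, above background on 0 of 4 IRI arrays), T cell markers higher for 2 of 6, fibroblast markers higher for 2 of 4, endothelial markers lower for 3 of 5, general leukocyte markers lower for 1 of 4 and proximal tubule markers higher for 2 and lower for 3 of 7. In IRI+Hemin versus IRI, where 26.3% of all genes were higher and 18.1% lower, 0 of 6 macrophage and monocyte markers were called, 1 of 4 neutrophil (Il8rb again), 1 of 4 fibroblast and 1 of 2 collecting duct markers were higher, 2 of 5 endothelial markers were higher and 1 lower, 2 of 7 proximal tubule markers were higher and 2 lower, and 1 of 6 T cell and 1 of 2 tested B cell markers were lower. The part of these cells in the differences of the members and lists was not tested.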

How the data were processed

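RNA of 20 kidney samples, 4 arrays in each of 5 groups taken from the labels, was hybridised to one-colour Agilent mouse arrays. The authors deposited scanner output of Agilent Feature Extraction 9.5.3.1, whose intensity values (processed signal) are background-subtracted, and a log2 matrix that equals log2 of that processed signal in 100% of the values of single-spot probes (to within 0.001), with 18.1% of its cells blank. Here, control spots and outlier flags were left out and saturated spots kept. Spots of a probe were averaged, arrays divided by their 75th percentile, probes of a gene name averaged and log2 taken. limma 3.58.1 in R 4.3.3 fitted 5 group means over 20 arrays (15 residual degrees of freedom), with Benjamini-Hochberg adjustment and no fold cutoff. A probe with several spots was well above background when at least 50% of them were. A gene was tested with at most 1 missing value and at least 3 of 4 arrays of a compared group well above background. "At least" folds set the dim group at the lowest signal well above background on each array, or at its own signal where that was higher. The number of arrays limits precision. The fit was tested on simulated data.

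Members and lists were chosen with earlier results of these data known. All members called in a comparison were named in it. From each list, in IRI versus Control and in IPC+IRI and IRI+Hemin versus IRI, up to 2 called genes that rose most and up to 2 that fell most were named where groups did not overlap and all 8 arrays were well above background, and for each member the 2 genes of highest Pearson r. The values of 1 gene that met this rule are not reported here. Member symbols all matched RefSeq, as did the accessions of 13 of 16 probes (not 1 probe each of Fas, Tnfrsf21 and Cd40). Of the listed symbols, Tnfsf13 and Ly6g were not found, and 4 were found under older names. Alternatives were other background correction, scaling, probe summaries, filters and fits, and leaving out each array.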

Additional observations from a re-analysis of the deposited data

Results flagged for a closer look

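The interaction of Hemin and ischemia passed the threshold of the limma fit for Tnfsf12 (2.13), Tnfrsf1b (1.21) and Ltbr (-0.86), on the log2 scale. All 3 calls were lost with normexp (0.030, 0.45 and -0.51) and with no normalization (1.92, 1.01 and -1.06). For Tnfsf12 a difference in response is not established, since it was well above background on 0 of 4 IRI and 2 of 4 IRI+Hemin arrays. Tnfrsf1b gave 0.23 (adjusted p = 0.83) on 1 of its 2 probes and lost its call without IRI replicate 1 or 3, IRI+Hemin replicate 2 or Hemin replicate 1 or 3.

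A single array stood apart from the other 3 of its group, by Dixon's criterion, in 4 of the 50 groups of 4 arrays examined, where chance gives about 1 in 20. Control replicate 2 was high for Fas (-0.65, against -1.11 to -1.07 on the others) and for Tnfrsf12a (0.92, against -0.07 to 0.09). IRI replicate 2 was high for Tnfrsf1b (-1.77, against -2.12 to -2.07), and IRI+Hemin replicate 1 for Tnfrsf10b (-4.61, against -4.72 on the others).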

How the results depend on the processing

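For the 26 called differences of members, 219 of 232 values from leaving out 1 array stayed past the threshold in the same direction and 13 did not, and of 301 values under the other planned settings 255 did, 45 lost the call and 1 turned. The slide as a random block could not be fitted and was not run. The replicate number as a block changed no count of called members. Residuals of 40 pairs with the same number correlated from -0.378 to 0.21 (median -0.031), with 7 over 0.1. Those of 120 pairs with unlike numbers correlated from -0.327 to 0.448 (median 0.0017), with 23 over 0.1. This gave no sign that the numbers pair the arrays, but it does not exclude it.

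Counts of members called are given as higher or lower, and not every count that changed is listed. With normexp, 0 were lower in IRI versus Control and 0 in IPC+IRI versus Control, 1 lower in IRI+Hemin versus IRI, 1 higher in Hemin versus Control, 1 lower in IRI+Hemin versus Hemin, and the interaction gave 0 and 0. Cd40 was then no longer called higher in IRI versus Control. With no normalization, 1 was lower in IRI versus Control, 5 higher and 0 lower in Hemin versus Control, and the interaction gave 0 and 0. Cd40 was then gained in IPC+IRI versus Control, and Tnfrsf21 and Tnfrsf10b lost their calls in IRI+Hemin versus Hemin. With quantile normalization, 1 was lower in IRI versus Control, 1 in IRI+Hemin versus IRI and 2 in the interaction. With the percentile over bright probes, 2 were lower in IPC+IRI versus Control and 1 in IRI+Hemin versus IRI. With the brightest probe, 2 were lower in IPC+IRI versus Control. With the mean of log2, 1 was lower in IRI versus Control, 2 higher in IPC+IRI versus IRI, 2 in IRI+Hemin versus IRI and 1 in the interaction. With the deposited matrix, 1 was lower in IRI versus Control, 0 higher in IPC+IRI versus IRI, 2 higher in IRI+Hemin versus IRI, 0 lower in Hemin versus Control, 1 lower in IRI+Hemin versus Hemin, and the interaction gave 0 and 0. With no filter, 2 were lower in IPC+IRI versus Control, 2 higher in IPC+IRI versus IRI, and 2 higher and 1 lower in IRI+Hemin versus IRI. With the strict filter, 0 were lower in IRI versus Control and in IPC+IRI versus Control, 1 lower in IRI+Hemin versus IRI and 1 higher in the interaction. With a 2-fold cutoff, 2 were higher and 1 lower in IRI versus Control, 2 higher in IPC+IRI versus Control, 0 higher in IPC+IRI versus IRI and in IRI+Hemin versus IRI, 0 and 0 in Hemin versus Control, 1 lower in IRI+Hemin versus Hemin and 0 lower in the interaction. With the compared arrays alone, 1 was lower in IPC+IRI versus IRI, 1 in IRI+Hemin versus IRI and 2 in the interaction. Leaving out 1 array gave 1 to 2 higher in Hemin versus Control, in the interaction and in IPC+IRI versus IRI, 0 to 1 lower in IRI+Hemin versus IRI and 1 to 2 lower in IPC+IRI versus Control, where Tnfrsf10b was called without IPC+IRI replicate 3 (-0.46, adjusted p = 0.012). Tnfrsf21 was gained in IRI versus Control without Control replicate 3 (limma adjusted p = 0.0052). Cd40 was gained in IPC+IRI versus Control without IPC+IRI replicate 1 (adjusted p = 0.0026). Tnfrsf10b lost its call in IRI+Hemin versus Hemin without several single arrays.

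Log2 differences that turned were mostly small. Normexp gave Tnfrsf10b 0.16 and Ltbr -0.11 in IRI versus Control, Tnfrsf21 -0.014 and Tnfrsf1b -0.042 in IPC+IRI versus Control, Tnfrsf10b -0.44 and Tnfrsf1b -0.14 in IPC+IRI versus IRI, Tnfrsf1b -0.17 and Ltbr 0.16 in IRI+Hemin versus IRI, Cd40 -0.16 in Hemin versus Control and Tnfrsf10b -0.20 in the interaction. No normalization gave Tnfrsf10b 0.12 in IPC+IRI versus Control, Tnfrsf1a 0.15 and Cd40 0.013 in IPC+IRI versus IRI, Tnfrsf1a 0.037, Tnfrsf10b 0.33 and Ltbr 0.13 in IRI+Hemin versus IRI, Tnfrsf10b 0.45 in Hemin versus Control, and Fas -0.036, Tnfrsf10b -0.12 and Tnfrsf12a -0.0037 in the interaction. Quantile normalization gave Ltbr -0.083 in IRI versus Control, Tnfrsf10b 0.025 and Tnfrsf21 -0.084 in IPC+IRI versus Control, Tnfrsf10b 0.053 and Tnfrsf21 -0.042 in Hemin versus Control and Tnfrsf10b -0.19 in the interaction. The percentile over bright probes gave Tnfrsf1b -0.080 and Ltbr -0.037 in IRI versus Control, Tnfrsf21 -0.044 in IPC+IRI versus Control, Fas -0.0063 in IPC+IRI versus IRI and Tnfrsf21 -0.012 in Hemin versus Control. The brightest probe gave Tnfrsf1b -1.15 in IRI versus Control, Tnfrsf10b 0.10 and Tnfrsf1b -1.42 in IPC+IRI versus Control, Fas -0.12 and Tnfrsf1b -0.27 in IPC+IRI versus IRI, and Tnfrsf10b 0.29 in IRI+Hemin versus IRI, 0.56 in Hemin versus Control and -0.27 in the interaction. The mean of log2 gave Tnfrsf10b 0.10 in IRI+Hemin versus IRI and Tnfrsf21 -0.055 in Hemin versus Control, and the deposited matrix gave Tnfrsf21 -0.17, -0.39 and -0.19 in IRI, IPC+IRI and Hemin versus Control. Single probes, added after seeing the data, repeated the brightest-probe values and gave Tnfrsf10b -0.0008 in IPC+IRI versus IRI, Tnfrsf21 -0.32, 0.61, -0.057, -0.30 and -0.080 on its dimmest probe (IRI versus Control, IPC+IRI versus IRI, IRI+Hemin versus IRI, Hemin versus Control, IRI+Hemin versus Hemin), Tnfrsf21 -0.15 and -0.12 on another (IPC+IRI and Hemin versus Control) and Tnfrsf1b 0.030 in Hemin versus Control. The cause was not tested.

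Leaving out 1 array moved Tnfrsf1b from -0.082 to 0.037 and Ltbr from -0.043 to 0.24 in IRI versus Control, Tnfrsf21 from -0.14 to 0.28 and Tnfrsf1b from -0.075 to 0.42 in IPC+IRI versus Control, Tnfrsf21 from -0.11 to 0.32 in Hemin versus Control, Fas from -0.092 to 0.19, Tnfrsf1a from -0.34 to 0.066, Cd40 from -0.60 to 0.027 and Tnfrsf1b from -0.077 to 0.42 in IPC+IRI versus IRI, Tnfrsf10b from -0.11 to 0.073 in IRI+Hemin versus IRI, and Tnfrsf12a from -0.035 to 0.45 and Tnfrsf21 from -0.011 to 0.41 in the interaction.

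Over all genes, the share of calls that were higher was 33.5% in IRI versus Control and 19.6% with the deposited matrix. It was 41.5% in IPC+IRI versus Control and 75.2% with no normalization, 59.6% in IPC+IRI versus IRI and 90.7% with none or 73.1% with the deposited matrix, 59.2% in IRI+Hemin versus IRI and 91.4% or 76.8%, and 51.3% in Hemin versus Control, 94.7% with none and 35.2% with the percentile over bright probes. In the interaction it was 74.9%, 64.6% with quantile normalization and 88.9% with the deposited matrix. The median of all genes in Hemin versus Control was 0.057, and 0.62 with no normalization. Tnf, Tnfsf12 and Tnfrsf10b are limited by signal near background.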
